A study of Mus musculus with 6 samples.

Results

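Distal forkhead regions are stretches of open chromatin that lie outside promoters and hold at least 1 match to a motif named for a forkhead factor. They were taken from a table of ATAC-seq counts as the regions with an empty promoter entry and at least 1 motif name starting with Fox, each position counted once. The rule found 6983 of the 43523 distinct regions (16.0%), or 23.7% of the 29426 distal regions. The cells were nephron progenitors of CD1 mice at 2 stages, embryonic (E14.5) and newborn (P0), and each stage had 3 libraries. A library was made from the pooled kidneys of 1 litter, from which the progenitors were drawn out with antibodies to the integrin Itga8. In ATAC-seq the transposase Tn5 cuts open DNA, and the count in a region measures how often it did so in these 6 pools.

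Forkhead factors bind DNA through a winged-helix domain, and most of them recognise the core TGTTTAC or a close variant of it. FoxA factors are known to open closed chromatin, FoxO factors are driven out of the nucleus by insulin and PI3K signalling through Akt, and Foxd1 marks the stroma that surrounds the progenitors. Since many of these factors share a core, a motif name does not say which of them, if any, was bound.

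The letters under a match could be read where a region overlapped a RefSeq promoter window (build GRCm38.p6, the same as the mm10 of the submitters' processing notes). Such windows gave letters for 55 members, so the sites below show what the motif names stand for and are no sample of the distal regions. Of the 781 matches to the other 20 forkhead names that could be read in any region of the table, 82.8% held TGTTT and 35.2% held TGTTTAC on either strand. Of 32817 promoter windows searched on both strands, 3.6% held TGTTTAC, 4.6% TGTTTAT and 5.1% TGTTTGC. A window is far longer than a match, so shares of windows and shares of matches are not on the same scale. Capitals mark these cores and TGTTTGT in 8 member sites, chosen by the number of names on the same bases and then by match score, with the number of names given before each position.
11 names, chr12:69625263-69625281, plus strand: tatTGTTTGTTTACagttg
7 names, chr10:111083526-111083539, plus strand: tccTGTTTACtaat
5 names, chr17:51534719-51534734, plus strand: ttgttgtTGTTTACac
4 names, chr15:37135772-37135785, plus strand: acTGTTTGCttagt
4 names, chr7:71961136-71961149, minus strand: tTGTTTATtgtttt
4 names, chr15:102746970-102746982, minus strand: tTGTTTATtgttc
4 names, chr10:19494581-19494594, plus strand: atgTGTTTGTttaa
4 names, chr19:53084938-53084952, minus strand: gactgttgactttgg
The first of these sites holds 2 cores that share bases, TGTTTGT and TGTTTAC, and was listed under Foxa1, Foxa2, Foxa3, Foxf1, Foxj2, Foxj3, Foxl2, Foxo1, Foxo3, Foxp2 and Foxq1. The last, listed under Foxa1, Foxa2, Foxa3 and Foxc1, holds none of these cores. None of these 8 regions passed the threshold between the stages, with adjusted p from 0.416 to 0.949 in edgeR's quasi-likelihood test.

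The names differed in the core they caught. All 50 readable Foxp2 matches held TGTTTAC, as did 78.2% of the 55 Foxo3 matches and 71.7% of the 53 Foxo1 matches. Foxo4 differed from them, with TGTTT in all 58 matches but TGTTTAC in only 10.3% and TGTTTAT in 27.6%. TGTTTGC was most frequent under Foxm1, in 36.5% of 52 matches, and TGTTTGT under Foxj2, in 39.5% of 76.

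The name Foxi1 stood for another sequence. All 417 readable Foxi1 matches held CCAAT on one strand or the other and none held TGTTT, whereas CCAAT was in 1.2% of the matches to the other 20 names and in 37.4% of the promoter windows. CCAAT is the core of the CCAAT box, a common promoter element. The 2 Foxi1 sites below lie in the only members with readable letters that passed the threshold, and the last site shown has the same letters as the one at Zfp781.
Near the start of Gm46195, chr10:82048056-82048067, plus strand: aaCCAATcagag
Near the start of Zfp781, chr10:81930575-81930586, minus strand: agCCAATcagaa
Near the start of Gm3055, chr10:81771237-81771248, minus strand: agCCAATcagaa
The region at Gm46195 had 50.4, 38.1 and 65.6 CPM (counts relative to the size of the library, scaled for its composition) in E14.5 replicates 1, 2 and 3, and 27.7, 20.4 and 24.9 CPM in P0 replicates 1, 2 and 3. The region at Zfp781, a zinc finger gene, had 16.5, 14.4 and 31.3 CPM at E14.5 and 9.47, 10.6 and 9.39 CPM at P0. All P0 libraries lay below all E14.5 libraries in both, with log2 fold changes of -1.07 ± 0.23 (SE; edgeR adjusted p = 0.0145) and -1.08 ± 0.28 (adjusted p = 0.0387). At Gm3055 the P0 libraries also lay below the E14.5 libraries, with a log2 fold change of -0.82 ± 0.26 and an adjusted p of 0.0881. Both calls rested on single libraries. Without E14.5 replicate 3 neither passed (-0.86, adjusted p = 0.124, and -0.65, adjusted p = 0.286). Without P0 replicate 1 neither passed (adjusted p = 0.0612 and 0.153), though the log2 fold changes of -1.19 and -1.07 were about as large as with all libraries. With 1 library left out, the region at Zfp781 passed only without E14.5 replicate 2. Over all settings the adjusted p ran from 0.000523 to 0.124 at Gm46195 and from 0.0116 to 0.286 at Zfp781. How reads that match several copies of a sequence were counted is not given in the sources used here.

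Members in which Foxi1 was the only forkhead name numbered 236, and 10.6% of them overlapped a RefSeq promoter window, against 2.13% of the other members. Of the 236, 1 was higher and 15 were lower at P0. Without them, 605 of 6747 members (8.97%) passed the threshold, 139 higher and 466 lower, close to the values with them.

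Depth in regions ran from 6492996 to 12292629 counts per library, of which 752110 to 1286236 fell in the members, with a median of 92 to 155 counts per member. The label of the cells was checked at promoter regions that overlapped a marker gene or the 2 kb around it. These were listed for 6 of 7 nephron progenitor markers, all but Meox1, at 20.9 to 45.1 CPM at E14.5 and 16.3 to 36.7 CPM at P0. They were also listed for 5 of 7 ureteric bud markers (up to 60.7 CPM and 54.0 CPM), 4 of 8 stromal markers (22.8 to 39.4 CPM and 21.8 to 47.0 CPM), 3 of 5 podocyte markers (13.3 to 49.9 CPM and 13.3 to 42.9 CPM), 2 of 6 endothelial markers (24.3 to 25.8 CPM and 21.0 to 27.4 CPM) and 1 of 5 immune markers (17.5 CPM and 15.3 CPM). No region was listed at the promoters of Pdgfra, Pdgfrb, Col1a1, Col3a1, Pecam1, Cdh5, Tek, Emcn, Ptprc or Csf1r. An open promoter does not show that a gene is expressed, and the part of other cell types in the results was not tested.

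Distal forkhead regions were less accessible at P0 than at E14.5 more often than they were more accessible. At an adjusted p under 0.05 in edgeR's quasi-likelihood test, 621 members (8.89%) differed between the stages, 140 higher and 481 lower at P0. Over all 43523 regions tested, 4.73% passed the threshold, 1.79% higher and 2.94% lower. The 22443 other distal regions passed in 5.87%, 2.60% higher and 3.27% lower. The members thus made up 39.6% of the 1215 distal regions that fell and 19.3% of the 724 that rose, against 23.7% of all distal regions. A count can fall because fewer cells had a region open or because it was less open in each cell, and these cannot be told apart in pooled cells.

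In the members that fell, the median level was 16.4, 17.1 and 20.8 CPM in the E14.5 libraries and 7.18, 8.17 and 7.97 CPM in the P0 libraries. In those that rose it was 8.78, 10.3 and 8.58 CPM at E14.5 and 20.2, 19.4 and 16.8 CPM at P0. These medians describe regions chosen for their difference. Their log2 fold changes had medians of -1.22 in the 481 and 1.03 in the 140, and 357 and 75 of them changed at least 2-fold. Over all members, every P0 library lay below every E14.5 library in 16.8% and above in 13.6%, against 12.4% and 11.8% over all regions (24.2% in either direction). At an unadjusted p under 0.05 in edgeR's test, 1848 members (26.5%) differed, against 18.7% of all regions.

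The change was in a minority of the members. The median log2 fold change over all 6983 members was 0.04, against 0.12 in the other distal regions and 0.01 over all regions. Members took 9.63%, 11.6% and 10.3% of the counts in the E14.5 libraries and 10.8%, 11.6% and 10.3% in the P0 libraries, or 10.5% ± 1.0 and 10.9% ± 0.65 (SD, n = 3 each). The stages overlapped in this share, and the difference of 0.38 percentage points was smaller than either SD. It was -0.06 points without E14.5 replicate 1, 0.93 without E14.5 replicate 2, 0.04 without P0 replicate 2 and 0.69 without P0 replicate 3.

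**Figure D1:**
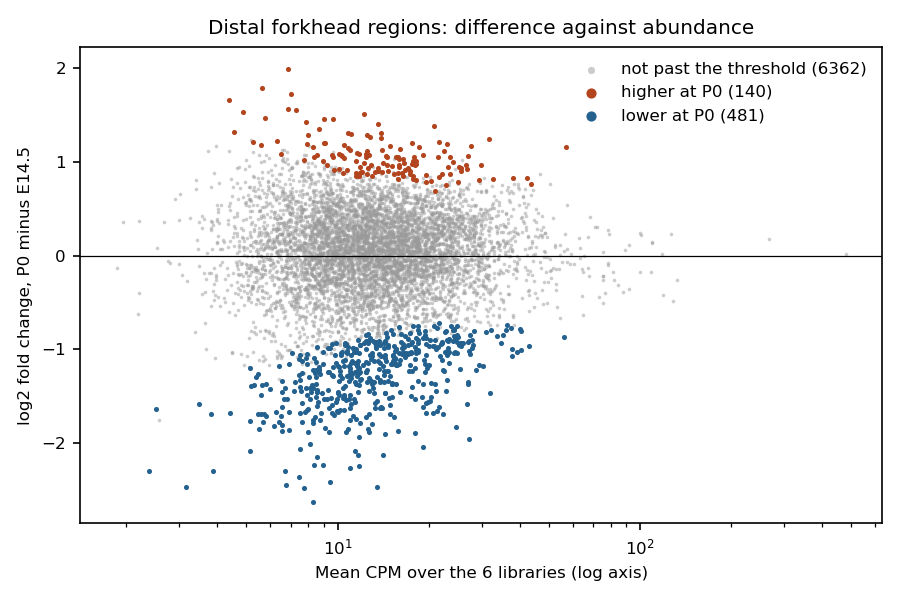
Each point is 1 of the 6983 distal forkhead regions, with its mean CPM over the 6 libraries on a log axis and its log2 fold change, P0 minus E14.5, on the vertical axis. The 481 regions lower at P0 (blue) outnumber the 140 higher ones (orange) and reach -2.63, while the largest gain is 1.99.

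The number of calls rested on single libraries, and the direction did not. Without E14.5 replicate 3 the test called 117 members (3 higher, 114 lower), without P0 replicate 1 it called 171 (11 and 160), and without E14.5 replicate 1 it called 384 (34 and 350). Without E14.5 replicate 2 the number higher rose to 328, beside 474 lower. In all 13 settings compared, the members had more losses than gains, a larger share past the threshold than the other distal regions and a lower median. The other distal regions turned to more gains than losses without E14.5 replicate 2 (1255 and 736) and with scaling by total counts (658 and 613).

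**Figure D2:**
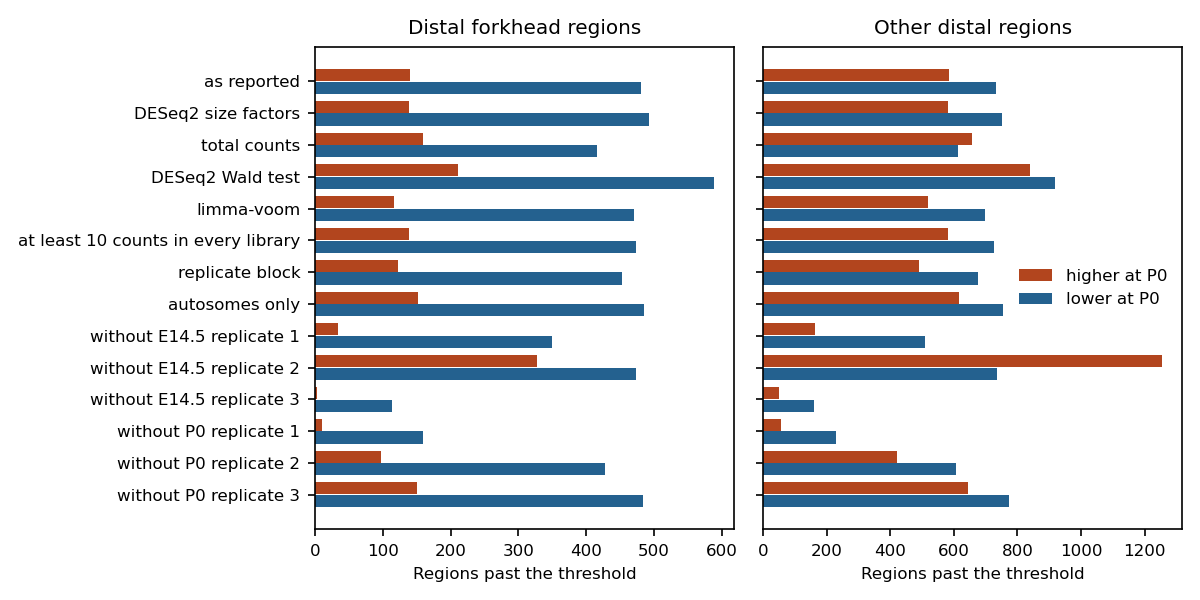
Bars give the number of regions past the threshold, higher (orange) or lower (blue) at P0, for distal forkhead regions on the left and other distal regions on the right, in the reported fit and 13 other settings. The blue bar is the longer one in every setting on the left, from 114 against 3 without E14.5 replicate 3 to 474 against 328 without E14.5 replicate 2.

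Members differed from other distal regions in length and level, with medians of 1684 bp against 1418 bp and 13.0 against 11.1 CPM. The comparison was therefore repeated in 3 classes of each. Among regions of up to 1387 bp, 7.77% of members fell, against 3.42% of other distal regions. The shares were 7.52% and 3.83% from there to 2001 bp, and 5.37% and 2.09% in longer regions. By level, 6.25% against 2.66% fell at up to 9.21 CPM, 7.60% against 3.87% from there to 14.7 CPM, and 6.66% against 3.34% above it. The share that rose was lower in members than in other distal regions in all 6 of these classes, for example 2.24% against 3.70% above 14.7 CPM. Shares of regions are descriptions, since regions of 1 library are not replicates, and they were not tested. Base composition could not be compared, since no genome sequence was used here.

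Members carried up to 18 of the 21 forkhead names, and the share that fell was 6.10% with 1 name and 8.42% with 4 or more. One name was listed in 3195 members, of which 195 fell and 67 rose. Losses made up 6.60% of 1257 members with 2 names, 7.17% of 809 with 3, the 8.42% of 1722 with 4 or more, and 9.07% of the 463 with 8 or more. The share that rose was 2.10%, 2.15% and 2.47% with 1, 2 and 3 names and 1.51% with 4 or more. The share past the threshold in either direction was larger with 4 or more names than with 1 in each of the 3 length classes, with 10.1% against 8.74% in the shortest, 12.1% against 9.29% in the middle and 7.83% against 6.39% in the longest. Over all lengths that gap was 1.73 percentage points. With 1 library left out it ran from 0.52 (E14.5 replicate 3) to 2.27 (P0 replicate 3), and it was 1.01 with scaling by total counts, 2.38 in DESeq2's Wald test and 3.03 at an adjusted p under 0.1. Without E14.5 replicate 3 the shares past the threshold were 1.63%, 1.35%, 1.36% and 2.15% with 1, 2, 3 and 4 or more names, so that they did not grow from 1 to 3 names.

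More names mostly meant more names on the same bases. Matches that shared bases were joined into sites, which gave 8722 sites from 21431 matches, with up to 17 names on 1 site. Of the 3788 members with at least 2 names, 2444 (64.5%) had a single site. Among 5594 members with 1 site, 364 fell (6.51%) and 122 rose (2.18%). Among 1134 with 2 sites, 85 fell (7.50%) and 17 rose (1.50%). Among 198 with 3 sites, 27 fell (13.6%) and 1 rose, and among 57 with 4 or more, 5 fell (8.77%) and 0 rose. The 255 members with 3 or more sites were also longer, with a median of 2065 bp against 1615 bp for 1 site. The best match score of a member showed a smaller gradient, from 6.04% lower in members with a best score of up to 12.7 to 7.75% in those above 14.9.

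**Figure D3:**
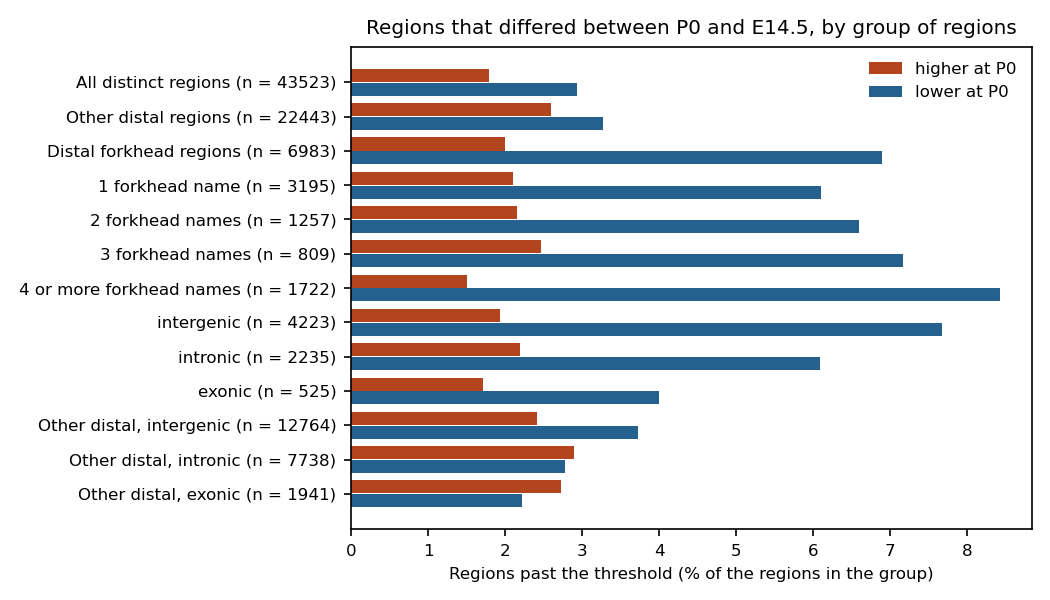
Bars give the percent of regions in each group that were higher (orange) or lower (blue) at P0 past the threshold, with the number of regions in brackets. The blue bar grows from 6.10% with 1 forkhead name to 8.42% with 4 or more, and is 6.89% over all members against 3.27% in the other distal regions.

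Each of the 21 names showed the same direction. Of the called members with a given name, between 73.4% (Foxo3) and 93.2% (Foxd1) were lower at P0. The share was 77.5% over all called members and 62.2% over all called regions. Foxc1 and Foxc2 are needed early in kidney formation. A Foxc1 name was listed in 590 members, of which 64 fell (10.8%, the largest share) and 8 rose, and a Foxc2 name in 527, of which 39 fell and 7 rose. With the names of the FoxO factors, 41 fell and 11 rose of 591 (Foxo1), 58 and 21 of 836 (Foxo3) and 85 and 29 of 1266 (Foxo4), that is 6.94%, 6.94% and 6.71% lower. These shares were near the 6.89% of all members. With the FoxA names, 8.11%, 7.95% and 8.93% fell for Foxa1, Foxa2 and Foxa3. Foxd1 had 41 lower and 3 higher of 515. The names share sites and regions, so these shares are not independent of each other.

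Of the members, 60.5% lay in no gene, 32.0% in a gene outside its exons, and 7.52% overlapped an exon. The intergenic members fell in 7.67% (324 of 4223) and rose in 1.94%, the intronic ones in 6.09% (136 of 2235) and 2.19%, and the exonic ones in 4.00% (21 of 525) and 1.71%. In the other distal regions, 3.73%, 2.78% and 2.22% fell in the same 3 classes, so the members had the larger share in each. The share past the threshold in either direction was 1.34 percentage points larger in intergenic than in intronic members. That gap was 0.60 points without E14.5 replicate 3 and 0.85 points without P0 replicate 1.

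Sites lay nearer the middle of the members that fell. The median distance of a site from the centre of its region was 32.7% of the half-length in members lower at P0 (636 sites), 42.1% in those higher (159 sites) and 38.5% in the rest (7927 sites). Matches to the motifs of other families showed 33.0%, 28.3% and 37.2% in the same members. In the other distal regions such matches lay at 32.9%, 35.3% and 35.8%, so a site near the centre of a fallen region was not particular to the forkhead names.

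Other motif names divided the members further. The 3985 members that also held another family's motif name fell in 6.05% and rose in 1.96%, and the 2998 without one fell in 8.01% and rose in 2.07%. The order was the same in other distal regions, where 2.54% of the 10355 with a motif name fell and 3.90% of the 12088 with none. Of 28 co-occurring names found in at least 100 members, the share that fell was larger in the members than in other distal regions with the same name for all 28, by 1.02 to 6.61 percentage points. Many of these names share regions. The share that rose was larger in members for 8 of the 28.

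Meis1, a homeobox factor of the kidney stroma and progenitors, was named in 541 members, of which 49 fell (9.06%) and 6 rose. In the 1118 other distal regions with that name, 57 fell (5.10%) and 14 rose. The related name Meis2 was listed in 127 members, of which 4.72% fell, below the 6.89% of all members, against 3.70% of 270 other distal regions. Over the Meis names together, 9.72% of 648 members passed the threshold against 8.81% of those without, but in the longest regions it was 4.29% against 7.14%. Sox names, which stand for a family of high-mobility-group factors, were the most frequent, in 1751 members or 25.1%. A Sox match shared bases with a forkhead site in 40.5% of these. With shared bases 6.20% of 710 members fell, and with the Sox match elsewhere 6.05% of 1041. Jun, Junb, Jund, Bach1 and Bach2 belong to or pair with the AP-1 family, and 33 of 456 members with such a name fell (7.24%, against 6.89% of all members) and 12 rose. In the 1044 other distal regions with such a name, 30 fell and 32 rose.

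Six2 is the factor that keeps nephron progenitors in their self-renewing state. Its name was listed in 267 members, of which 7 fell and 1 rose, so that 3.00% passed the threshold against 9.13% of the members without it. This share rests on 8 regions and ran from 0.749% without E14.5 replicate 3 to 7.49% without E14.5 replicate 2. In the 671 other distal regions with a Six2 name the balance was the other way, with 21 higher and 10 lower. Gains also outnumbered losses in the other distal regions for all the other families compared except Sox and Meis. Sall1 and Sall4 names, of zinc finger factors of early kidney and stem cells, went with calls in 5.00% of 900 members against 9.47% without them, and in 4.68% of 2630 other distal regions. Maz, a zinc finger factor with a G-rich motif, showed 6.53% of 995 against 9.29%, and 5.14% of 2899 other distal regions. Smad names, of the mediators of TGF-beta and BMP signals, showed 5.96% of 705 against 9.22%, and 3.90% of 2052 other distal regions. The Sall and Maz shares in either direction were thus near those of other distal regions with the same names, but the balance differed. With a Sall name 31 members fell and 14 rose, while 50 other distal regions fell and 73 rose. With a Maz name 40 members fell and 25 rose, while 60 other distal regions fell and 89 rose. Without E14.5 replicate 3 and without E14.5 replicate 2, which gave the lowest and the highest values, the shares were 0.444% and 7.11% with a Sall name, 0.905% and 7.64% with a Maz name and 0.709% and 7.80% with a Smad name. Members with a Maz, Sall or E2f name were longer than those without, with medians of 1963.5 bp and 1607 bp, and 2.84 percentage points fewer of them passed the threshold. That gap was 1.09 points at an adjusted p under 0.01 and 0.99 points without E14.5 replicate 3, settings in which fewer regions passed. By length, the difference in the middle class was small for Smad names (9.33% with and 10.3% without) and went the other way for E2f names (10.8% and 10.1%).

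Pax names, of paired-box factors that include regulators of the nephron lineage, had the largest share past the threshold of the 9 families compared, in 11.2% of 338 members (28 lower, 10 higher) against 8.77% without them. In the 1054 other distal regions with a Pax name it was 3.89%. The share in members was 2.37% without E14.5 replicate 3 and 13.3% without E14.5 replicate 2, and in the middle length class it was below that of members without the name (7.69% and 10.3%). Pax names did not rank first without E14.5 replicate 3, since the Meis share was at least 2.47% with any 1 library left out.

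**Figure D4:**
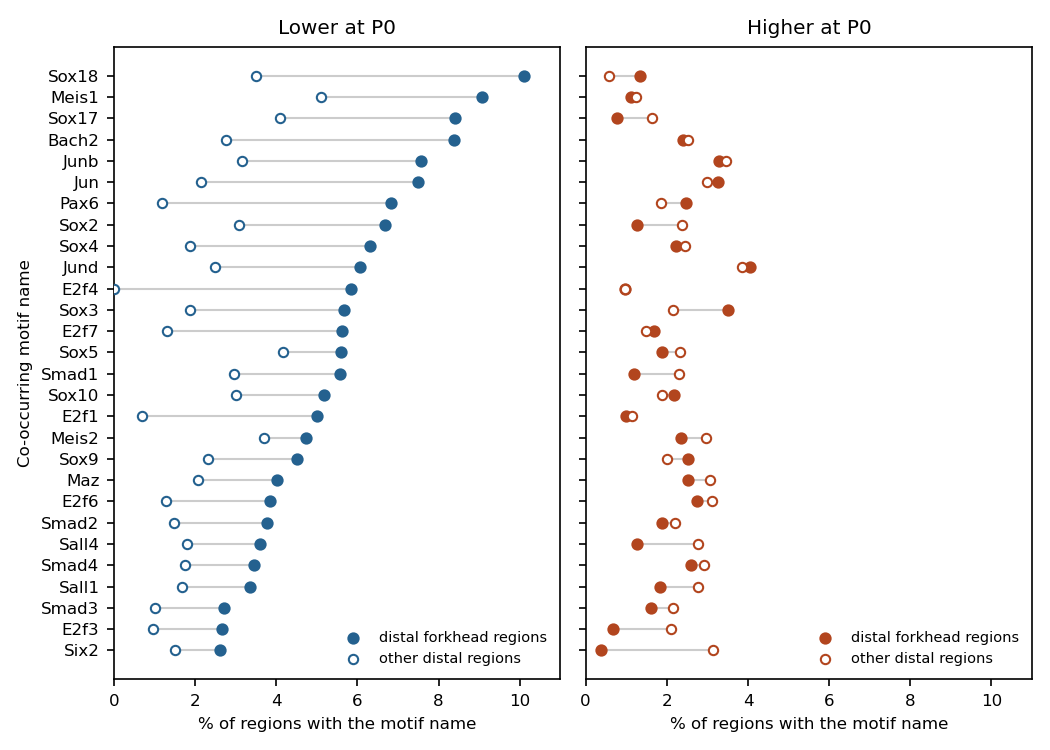
For each of 28 motif names found in at least 100 members, filled points give the percent of distal forkhead regions with that name that were lower (left) or higher (right) at P0, and open points the same for other distal regions. The filled point lies to the right of the open one for all 28 names on the left, and for 8 of 28 on the right.

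The largest loss was in an exonic region of Adgrb3, an adhesion G protein-coupled receptor, at chr1:25420427-25421217. It had 14.0, 13.1 and 15.6 CPM in the E14.5 libraries and 2.50, 1.97 and 2.37 CPM in the P0 libraries, a log2 fold change of -2.63 ± 0.28 (SE; edgeR adjusted p = 0.00109), with a single Foxj3 name. A region 541.2 kb from Kcnd2, a potassium channel gene, at chr6:20672839-20674157 had 13.9, 22.2 and 32.6 CPM at E14.5 and 3.64, 5.45 and 3.55 CPM at P0 (-2.47 ± 0.32, adjusted p = 0.00142). Its E14.5 libraries spread more than 2-fold, and all lay above the P0 libraries.

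Another 3 of the losses lay between genes. A region 31.0 kb from Mrps30, a gene of the mitochondrial ribosome, and 296.0 kb from Fgf10, a growth factor of branching organs, held 10 names on 1 site (chr13:118418220-118418654). It fell from 4.86, 4.29 and 6.89 CPM to 0.729, 1.36 and 0.868 CPM, a log2 fold change of -2.47 ± 0.43 (adjusted p = 0.00524), and without E14.5 replicate 3 it missed the threshold (-2.24). A region 25.2 kb from Epha3, an ephrin receptor gene, at chr16:63517330-63518349 held 5 names on 2 sites. It had 8.66, 13.1 and 12.4 CPM at E14.5 and 1.15, 3.33 and 1.97 CPM at P0 (-2.45 ± 0.37, adjusted p = 0.00285). A region 279.8 kb from Isl1, a LIM-homeobox gene, at chr13:116017520-116018422 had 13.8, 13.7 and 20.1 CPM at E14.5 and 2.29, 4.09 and 2.68 CPM at P0 (-2.42 ± 0.30, adjusted p = 0.00116). In none of these 3 did the stages overlap.

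Another 4 of the 10 largest losses had log2 fold changes from -2.36 to -2.29. They lay 52.3 kb from Stxbp5 (chr10:9953552-9954595, 7 names on 1 site), in an intron of Frmpd4, a synaptic scaffold gene (chrX:168404194-168404832, 8 names on 1 site), 1623.5 kb from D3Ertd751e (chr3:43426796-43427306), and in an exonic region of Hnf4g, a nuclear receptor gene of epithelia (chr3:3652703-3653854, Foxj3 only). At Hnf4g the E14.5 libraries had 10.6, 9.02 and 14.0 CPM and the P0 libraries 1.98, 1.97 and 2.76 CPM, with no overlap. The region by D3Ertd751e was the least firm of the 10, and missed the threshold without E14.5 replicate 1 (-2.16), E14.5 replicate 3 (-2.26) or P0 replicate 1 (-2.17).

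The largest gain was in an exonic region of Mocs2, which encodes subunits of molybdopterin synthase, at chr13:114821591-114822324. It rose from 2.85, 2.80 and 2.57 CPM to 11.5, 12.1 and 9.39 CPM, a log2 fold change of 1.99 ± 0.29 (edgeR adjusted p = 0.00242), with a Foxd3 name alone. An intronic region of Col4a6, a basement membrane collagen gene, at chrX:141363269-141363867 had 3.56, 2.89 and 1.05 CPM at E14.5 and 10.9, 8.63 and 6.63 CPM at P0 (1.79 ± 0.39, adjusted p = 0.0187) and also held Jun, Junb and Jund names. An intronic region of Tacr1, the receptor of substance P, at chr6:82458881-82459666 had 2.61, 4.64 and 3.04 CPM at E14.5 and 10.4, 9.84 and 10.5 CPM at P0 (1.56 ± 0.30, adjusted p = 0.00957) and held a Pax8 name. Pax8 is a paired-box factor of the nephron lineage.

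Gains with more names included a region between Sncaip and Snx2 with 15 forkhead names on 2 sites (chr18:53107667-53109266). It rose from 7.59, 6.92 and 4.55 CPM to 21.7, 13.0 and 19.5 CPM, a log2 fold change of 1.51 ± 0.27 (adjusted p = 0.00623). A region 498.4 kb from Fbxo33 with 5 names (chr12:59720393-59721513) had 4.27, 3.15 and 2.34 CPM at E14.5 and at least 8.76 CPM in each P0 library (1.72 ± 0.33, adjusted p = 0.00887). A region 76.4 kb from Lrig1, which dampens growth factor receptors, at chr6:94776697-94777960 had 5.58, 4.82 and 3.97 CPM at E14.5 and 15.4, 12.3 and 11.9 CPM at P0 (1.46 ± 0.26, adjusted p = 0.00647). The stages did not overlap in any of these. The other 4 of the 10 largest gains lay in introns of Acer3 (1.66) and Trappc9 (1.46), 136.5 kb from Tars (1.55) and 153.9 kb from Zfp365 (1.53). The gains were less firm than the losses: 9 of the 10 lost the call in at least 1 setting, against 2 of the 10 losses, and Mocs2 kept it in all. Without E14.5 replicate 3 the regions at Col4a6 (1.44), Tacr1 (1.48), Fbxo33 (1.54), Tars (1.58), Zfp365 (1.54), Snx2 (1.32), Acer3 (1.32), Trappc9 (1.46) and Lrig1 (1.35) missed the threshold, and without P0 replicate 1 those at Col4a6 (1.57), Acer3 (1.77), Tacr1 (1.54), Zfp365 (1.44), Snx2 (1.34), Trappc9 (1.51) and Lrig1 (1.32) did. Zfp365 (1.34) and Trappc9 (1.34) also missed it without E14.5 replicate 1, and Acer3 (1.58) without P0 replicate 2.

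**Figure D5:**
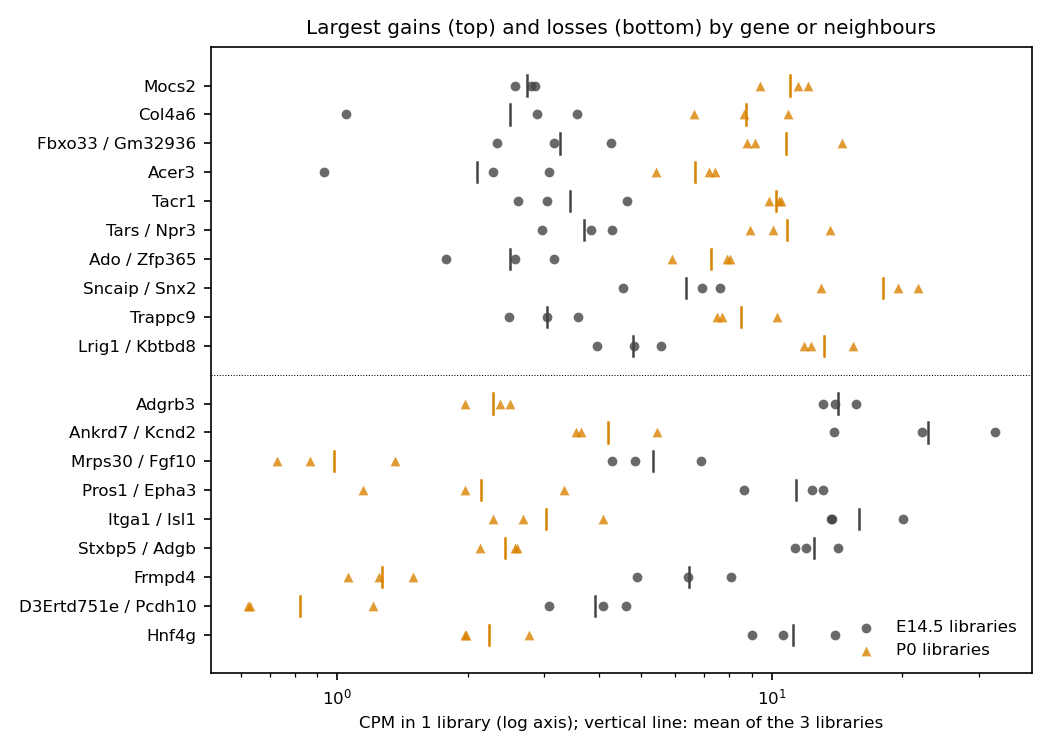
Points give the CPM of each library on a log axis in the 10 distal forkhead regions with the largest gains (top) and 9 of the 10 with the largest losses (bottom), with circles for E14.5, triangles for P0 and a vertical line at each mean of 3 libraries. Rows are named by the gene that holds the region or by its neighbours, and the stages do not overlap in any row.

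The 3 members with the most names and the 3 with the highest mean level did not pass the threshold. The member with 18 names on 6 sites in an intron of Tenm3, a teneurin of neural wiring (chr8:48688212-48691600), had 17.3, 18.5 and 17.9 CPM at E14.5 and 23.0, 25.0 and 21.6 CPM at P0. Its P0 libraries lay above its E14.5 libraries, with a log2 fold change of 0.37 ± 0.19 and an edgeR adjusted p of 0.303. The member with 18 names 408.0 kb from Gja1 (chr10:56798405-56800303) had 12.2, 28.0 and 17.9 CPM and then 24.6, 32.1 and 18.6 CPM (0.35 ± 0.28, adjusted p = 0.545), and the one with 17 names 29.6 kb from Ripply2 (chr9:86984078-86985981) had means of 20.1 and 19.5 CPM (adjusted p = 0.945). In both, the stages overlapped. The member with the highest mean level (chr4:3089513-3091456) had 549, 326 and 552 CPM at E14.5 and 431, 689 and 320 CPM at P0. The next (chr18:3004130-3006615) had 307, 125 and 321 CPM and then 220, 460 and 174 CPM. In these 2 regions E14.5 replicate 2 and P0 replicate 3 were low and P0 replicate 2 was high, and the stages overlapped (adjusted p = 0.99 and 0.85). The last of the 3 highest, 7.6 kb from Ric8b (chr10:85025947-85026644), had 185, 104 and 145 CPM and then 118, 148 and 97.2 CPM, also with overlap (adjusted p = 0.63).

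Of the 37 genes of forkhead factors, 4 had a member in or within 10 kb of the gene, 6 members in all, and 0 of these passed the threshold, against 8.89% of all members. The region near Foxd1 (chr13:98365216-98367207) had 13.4, 18.3 and 16.9 CPM at E14.5 and 20.1, 14.8 and 16.6 CPM at P0, with overlapping stages (log2 fold change 0.08 ± 0.21, edgeR adjusted p = 0.883). The other 5 lay at Foxn3, Foxp1 and Foxp4, with log2 fold changes from -0.08 to 0.27. Of the 31 promoter regions at 22 of the 37 forkhead genes, 1 rose and 0 fell, against 0.383% and 0.468% of all promoter regions. It was 1 of 2 promoter regions that overlapped Foxm1, a gene of the cell division cycle, or the 2 kb around it (chr6:128374723-128375731). Whether it lies at the start of Foxm1 was not checked. The region had 8.78, 11.2 and 6.66 CPM at E14.5 and 28.2, 13.9 and 17.5 CPM at P0 (1.16 ± 0.28, adjusted p = 0.0286). Summed over both regions the level was 34.3 CPM at E14.5 and 43.7 CPM at P0, and the other region did not pass. The called region missed the threshold without E14.5 replicate 1 (1.15), E14.5 replicate 3 (0.99) or P0 replicate 1 (0.81).

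Among 18 target genes of FoxO factors and 12 genes of insulin and PI3K signalling, 1 of each list had a member. The region in an intron of Insr, the insulin receptor gene (chr8:3215222-3216033), had 6.88, 6.66 and 8.64 CPM at E14.5 and 4.79, 6.05 and 4.89 CPM at P0, a log2 fold change of -0.50 ± 0.29 (adjusted p = 0.38). The region in an intron of Igf1r, the receptor of insulin-like growth factors (chr7:68084928-68086184), had 6.64, 9.20 and 11.3 CPM at E14.5 and 4.27, 5.15 and 7.03 CPM at P0 (-0.71 ± 0.31, adjusted p = 0.217). The P0 libraries lay below the E14.5 libraries at Insr and overlapped them at Igf1r, and neither passed the threshold. Of 15 progenitor genes, Itga8 had a member (0.25 ± 0.19, adjusted p = 0.523). Of 11 genes of early nephron differentiation, Pax8 (0.47 ± 0.20, adjusted p = 0.226) and Cdh6 (0.26 ± 0.26, adjusted p = 0.642) had one each. At Pax8 the E14.5 libraries had 13.5, 19.1 and 15.1 CPM and the P0 libraries 22.2, 19.8 and 24.1 CPM, with no overlap.

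The authors' deposited table classed 233 members as opening, 387 as closing and 6363 as stable. Of the other distal regions, the authors' deposited table classed 908 as opening and 569 as closing. Of the 387 members in the closing class of the authors' deposited table, 372 were among the 481 that fell here, and of the 233 in its opening class, 138 were among the 140 that rose.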

How the data were processed

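Counts were used as deposited: 1 whole-number count per region and library, for 6 ATAC-seq libraries, with coordinates on mm10 per the submitters' processing notes. The same deposited table held the authors' log2 fold change, p-value and class for each region, used only where named, and motif names with a match score of at least 12.0. The aligner, peak caller, read shift, handling of duplicates and motif set are not given in the sources used here. Rows repeated at the same position (1966) were counted once. The first letter of a match lay 1 base after the listed start, as fitted against the scores. Counts were tested with edgeR 4.0.16 (R 4.3.3; TMM, filterByExpr, which removed 0 regions, quasi-likelihood F test, stage as the only term) over all 43523 regions, with Benjamini-Hochberg adjustment and a threshold of 0.05. CPM used TMM-scaled library totals. SE is the log2 fold change over the root of F. Library numbers were not used to pair the stages, except in the replicate block. On simulated counts of this comparison with 43523 regions, 67 of 200 2-fold changes were called (33.5%). Only those 200 regions were changed, while 2059 regions passed in the data, so the adjustment was stricter in the simulation. The replicates were separate litters. Alternatives used DESeq2 1.42.0, limma 3.58.1, other scalings, filters, thresholds, chromosomes, member definitions, a replicate block and 1 library left out.

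Regions named with values were the 10 largest gains and losses past the threshold without overlap of the stages, the 3 with the most forkhead names, the 3 with the highest mean CPM and those at listed genes past the threshold, of which there were 0. Of the 10 largest losses, 1 is not reported here. Members at listed genes given without passing, the promoter region at Foxm1 and the sequences shown were chosen after their values were seen. The members and lists were chosen with earlier results of these data known. Sequences of the largest gains and losses are not shown, since no genome was used here. Distances to genes use RefSeq on GRCm38.p6.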

Additional observations from a re-analysis of the deposited data

How the results depend on the processing

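Of the members, 117 to 802 passed the threshold with 1 library left out, 3 to 328 higher and 114 to 484 lower, with 59.1% to 97.4% of the calls lower, and the gap between members with and without a Maz, Sall or E2f name ran from -3.67 to -0.99 percentage points. At an adjusted p under 0.01, 195 passed (18 higher, 177 lower, 90.8% lower, a gap of -1.09 points), and at 0.1, 961 passed (300 higher, 68.8% lower). DESeq2's Wald test called 211 higher and gave 73.6% lower, and scaling by total counts gave 72.3%. With at least 2 forkhead names required, which leaves 3788 members, 359 passed (73 higher, 286 lower). The median log2 fold change over members ran from -0.04 without P0 replicate 2 to 0.10 with scaling by total counts. The cause of these shifts was not tested.

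The correlations of same-numbered libraries across the stages were 0.0666, -0.14 and 0.0767, and those of differently numbered ones ran from -0.241 to 0.192. They gave no sign that the numbers pair the samples, and 3 libraries per stage cannot exclude it. With the replicate block, 574 members passed (122 higher, 452 lower), 541 of them among the 621, and the regions at Acer3 (1.73) and Zfp781 (-1.01) lost the call. Leaving out members with Foxi1 as the only forkhead name, or members that overlap a RefSeq promoter window, are alternatives chosen after seeing the data, and each kept the counts within 1.5 times. With 3 libraries per stage at these depths and this spread, 33.5% of simulated 2-fold changes were called, and the part of depth alone was not tested. With only 200 regions changed, the adjustment was stricter there than in the data. The share thus does not measure how often a 2-fold change was called in the data.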
